A study of Mus musculus with 21 samples.

Results

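The 9 Hedgehog pathway genes Hhip, Ptch1, Gas1, Boc, Smo, Sufu, Gli1, Gli2 and Gli3 were followed across 7 groups of mouse embryonic stem cells. They were found by gene symbol among the 22512 genes of the deposited count table, and all 9 were present. The list was drawn up because Hhip is higher after loss of Trim71, after loss of Ago2 and with the T6B peptide, so its values in those comparisons are a description and carry no test. The other 8 members were added as named genes of the pathway. Total RNA was sequenced from 21 libraries, 3 per group, described by the submitters as biological replicates. All lines share 1 parental background, 129S6/SvEvTac cells that carry a GFP reporter with TRIM71 binding sites (GFP_5xT71BS), and the parental line stably expresses FLAG-tagged Cas9. They were grown on gelatin with serum and LIF. Experiment 1 held the untransfected parental cells (W), Trim71-/- cells (Trim71KO) and Ago2-/- cells (Ago2KO). Experiment 2 held parental cells transfected with pCIP FH-T6B_WT::mCherry (T6B_WT) or pCIP FH-T6B_MUT::mCherry (T6B_MUT), and Trim71-/- or Ago2-/- cells given an empty plasmid (Trim71KO_empty, Ago2KO_empty). T6B_MUT served as the control of Experiment 2, so that in its knockout comparisons genotype and plasmid changed together and cannot be told apart. The labels do not say how many clones each edited line represents, nor which residues differ in T6B_MUT.

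Hedgehog ligands bind Patched (PTCH1), which otherwise holds the membrane protein Smoothened (SMO) inactive, and active SMO releases the GLI transcription factors from their inhibitor SUFU at the primary cilium. HHIP is a membrane-anchored protein that binds the ligands without passing a signal on, while GAS1 and BOC are surface co-receptors that help the ligands reach PTCH1. Gli1, Ptch1 and Hhip are themselves transcriptional targets of the pathway in many tissues, so their transcripts are commonly read as its output. TRIM71 binds mRNAs and lowers their output, AGO2 holds microRNAs and finds targets with them, and T6B is a fragment of the GW182 protein TNRC6B that occupies Argonaute in place of the full-length silencing factor.

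Because both Argonaute loss and T6B act on microRNA silencing, the members' 3′ UTRs were searched for matches to the seed AAGUGCU. Several microRNAs of the miR-290 and miR-302 families, the main microRNAs of mouse embryonic stem cells, carry it. The mature sequences below, from RefSeq (GRCm38.p6), show the seed (bases 2 to 8) in capitals.
mmu-miR-294-3p: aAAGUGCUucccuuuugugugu
mmu-miR-302b-3p: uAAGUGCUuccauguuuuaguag
mmu-miR-290a-3p: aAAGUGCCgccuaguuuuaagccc
The first and second of these have the seed AAGUGCU, as do miR-291a-3p, miR-295-3p and miR-302d-3p, and miR-290a-3p has AAGUGCC. The seeds of miR-290a-3p and of miR-302c-3p (AGUGCUU) were not searched. Of the 9 members, 3 held 1 match each to the AAGUGCU seed in the GENCODE M21 3′ UTR. Each match is shown here in capitals with its neighbouring bases, on the gene's own strand (GRCm38).
Hhip, chr8:79971760-79971786, minus strand: agaacgttgtGCACTTAgctttttatt
Ptch1, chr13:63511295-63511321, minus strand: tgtttgctggGCACTTAcagcagagtt
Sufu, chr19:46487334-46487361, plus strand: aagctcacctAGCACTTAgaggcagacc
The Hhip and Ptch1 matches have the form GCACTTA, which pairs with bases 2 to 7 of the AAGUGCU microRNAs and adds an A opposite base 1. The Sufu match has the full form AGCACTTA. In Ptch1 the base before the capitals is a g, so the stretch also reads GGCACTT, the site of the miR-290a-3p seed. Such matches are common in long UTRs. The Hhip UTR has 6480 bases, and 62.7% of 448 UTRs of similar length (0.8 to 1.25 times as long) held at least 1 match to this seed. The shares were 39.5% for UTRs of the length of Ptch1 and 37.3% for those of the length of Sufu, against 19.9% of all 14922 UTRs. Gas1, Boc, Smo, Gli1, Gli2 and Gli3 held no AAGUGCU match, and no member held a match to the related miR-17 seed. A match is a description of the letters and was not tested as a site. The core GLI motif TGGGTGGTC, searched on both strands in the 300 bases around the start site, was found with up to 1 mismatch in 0 of the 7 member promoters listed by RefSeq (Gli1 and Boc had no entry) and in 6.74% of 32851 promoters.

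The libraries held between 29.6 M and 57.9 M counts each. Pou5f1, Nanog and Sox2, which define pluripotent cells, stood at 285 CPM or more in every library, so the labelled cell type had its markers. CPM are counts scaled to a common library size (TMM), separately within each experiment. Trim71 was at 608 CPM on average in W and at 429 CPM in Trim71KO (log2 fold change -0.50, SE 0.05, edgeR adjusted p = 1.55e-06) and was still counted in all edited libraries. A smaller fall of Trim71 was called in Ago2KO, to a mean of 510 CPM (log2 fold change -0.25, SE 0.05, edgeR adjusted p = 0.00161). Against T6B_MUT a fall was called in Trim71KO_empty (-0.29, SE 0.08, edgeR adjusted p = 0.0117). None was called in Ago2KO_empty (-0.008, SE 0.08, edgeR adjusted p = 0.951). T6B_WT lay wholly below T6B_MUT for Trim71, without a call (-0.20, SE 0.08, edgeR adjusted p = 0.102). The labels do not say which bases were removed, so a count over the whole gene does not measure the edit. Ago2 fell from 142 to 41.9 CPM in Ago2KO (log2 fold change -1.76, SE 0.07, edgeR adjusted p = 1.3e-09). In the libraries labelled Ago2KO_empty, however, Ago2 stood at 87.4, 166.6 and 45.6 CPM in replicates 1, 2 and 3. T6B_MUT had 112 to 143 CPM, and the difference was not called (edgeR adjusted p = 0.601). Replicates 1 and 3 lay below all T6B_MUT libraries and replicate 2 above them. These 3 libraries also differed in many other genes. Between replicates 2 and 3, Gli2, Gli3, Sufu and Ptch1 differed by 1.24, 1.12, 1.05 and 0.92 on the log2 scale, all above the 95th percentile of 0.72 over 12585 genes. Across those genes, which are not independent replicates, the ratio of the libraries had a Spearman correlation of 0.55 with the deposited gene length. For the members, results of Experiment 2 are given with and without these libraries where that changes a call. For other genes, calls of Experiment 2 are from the fit that includes them, unless a left-out library is named. Without them the share of all genes called rose from 16% to 21.8% in T6B_WT and from 27.8% to 34.6% in Trim71KO_empty.

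Hhip (ENSMUSG00000064325, chromosome 8, 79965851 to 80058006, minus strand) was barely counted in the untransfected W cells and stood higher in every edited or T6B_WT library than in the controls of its own experiment. HHIP takes ligand away from the receptor. It was counted at 0.909, 1.02 and 0.853 CPM in the 3 W libraries, which is 41 to 48 reads. Trim71KO had 3.24, 2.61 and 1.93 CPM and Ago2KO had 2.12, 2.54 and 1.86 CPM. Every edited library of Experiment 1 lay above every W library, and the edited groups overlapped each other. In Experiment 2, T6B_MUT had 4.26, 3.84 and 3.98 CPM, whereas T6B_WT had 8.70, 8.84 and 8.84 CPM. Trim71KO_empty reached 12.2, 10.5 and 8.51 CPM and Ago2KO_empty 14.4, 12.6 and 9.56 CPM. All 9 of these libraries lay above all 3 T6B_MUT libraries, and Trim71KO_empty overlapped both T6B_WT and Ago2KO_empty.

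**Figure D1:**
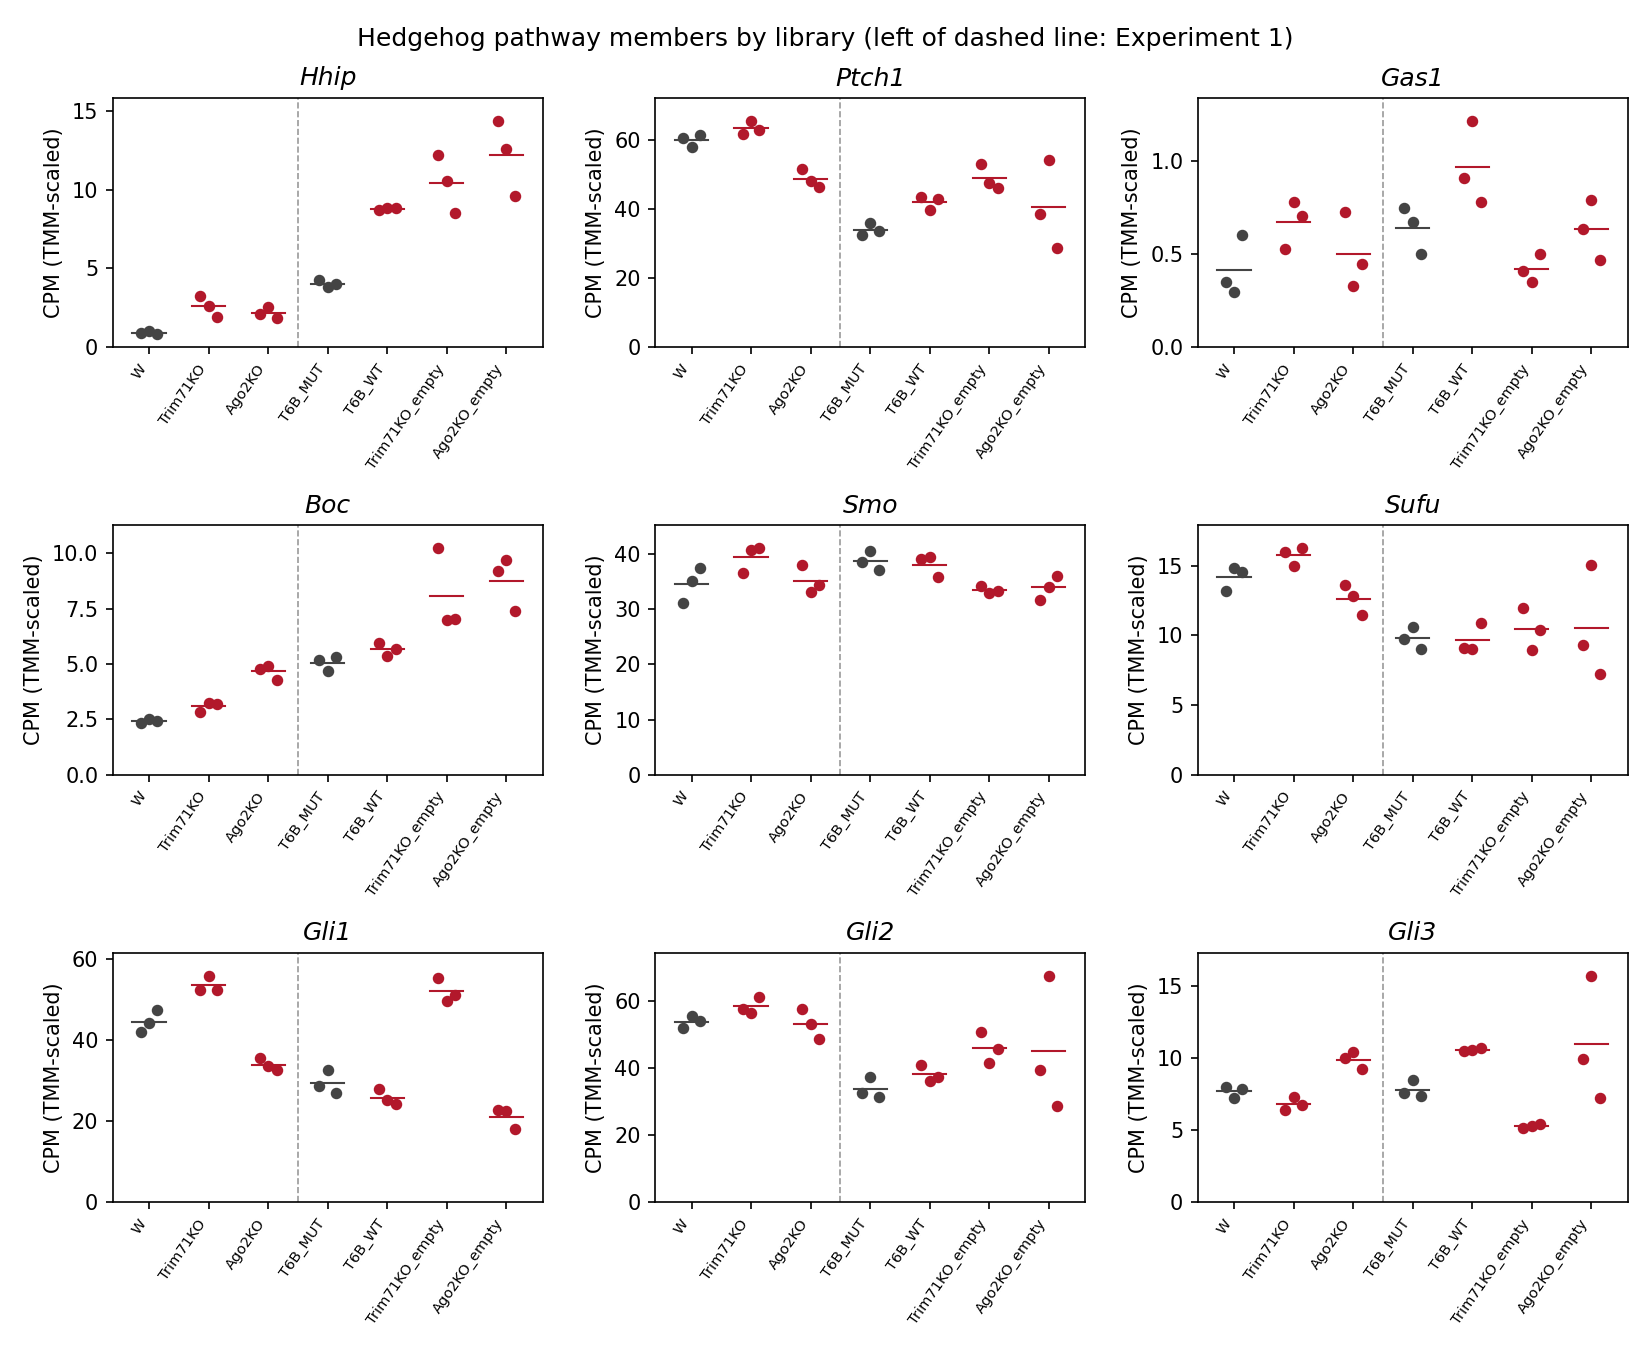
Level of each of the 9 members in every library, in CPM on a linear axis from 0, by group, with points for the 3 libraries of a group and a line at their mean, controls (W and T6B_MUT) in grey. Hhip lies above its control in all 5 comparisons, Gli1 is high in both Trim71-edited groups and low in both groups labelled as Ago2 knockouts, and the 3 Ago2KO_empty libraries spread widely for Ptch1, Sufu, Gli2 and Gli3.

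On the log2 scale Hhip differed from W by 1.47 (SE 0.20) in Trim71KO, a 2.77-fold difference, and by 1.21 (SE 0.21) in Ago2KO. Against T6B_MUT it differed by 1.12 (SE 0.14) in T6B_WT, 1.37 (SE 0.14) in Trim71KO_empty and 1.59 (SE 0.14) in Ago2KO_empty. Both differences of Experiment 1 share the W libraries, and all 3 of Experiment 2 share the T6B_MUT libraries. Set directly against each other, the knockouts had a log2 difference of 0.27 (SE 0.19) between Trim71KO and Ago2KO and of -0.22 (SE 0.13) between Trim71KO_empty and Ago2KO_empty. The T6B_WT difference minus the Ago2KO difference was -0.08 on the log2 scale, with an SE of 0.25. The control levels were far apart, at 0.928 ± 0.086 CPM in W and 4.03 ± 0.21 CPM in T6B_MUT (SD, n = 3). The T6B_MUT libraries lay above all Trim71KO and Ago2KO libraries. Experiment, plasmid and transfection differ together between W and T6B_MUT and cannot be told apart. GENCODE M21 lists the gene Gm27820 on the opposite strand within Hhip, and whether strand was used in counting is not given in the sources used here.

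Levels per length (RPKM) allow the members to be compared with each other. In W the mean RPKM was 9.04 for Gli1, 7.93 for Gli2, 6.25 for Smo, 4.28 for Ptch1 and 1.87 for Sufu, followed by 0.811 for Gli3, 0.552 for Boc, 0.143 for Gas1 and 0.104 for Hhip. Gas1 at 0.102 to 0.207 RPKM and Hhip at 0.0953 to 0.114 RPKM overlapped, while the other neighbours in this order did not. In Ago2KO_empty Hhip stood at 1.31 ± 0.25 RPKM (SD, n = 3), beside Sufu at 1.33 ± 0.49, Gli3 at 1.11 ± 0.42 and Boc at 1.92 ± 0.24. The ranges of Hhip, Sufu and Gli3 overlapped there.

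Chromosome 8, which holds Hhip, was itself shifted in the Trim71-edited cells. In Trim71KO against W the median log2 fold change of its 1059 other tested genes was 0.19, with 71.3% of them above 0, and it was 0.09 in Trim71KO_empty against T6B_MUT. It was 0.00 in Ago2KO, -0.02 in T6B_WT and 0.02 in Ago2KO_empty against their controls. Hhip exceeded the chromosome median by 1.28 in both Trim71-edited groups, by 1.20 in Ago2KO, by 1.14 in T6B_WT and by 1.57 in Ago2KO_empty. In Trim71KO 14 other genes of the chromosome had a log2 fold change at or above that of Hhip, and in Ago2KO 3 did. In Experiment 2 these counts were 15 in T6B_WT, 25 in Trim71KO_empty and 8 in Ago2KO_empty. Whether copy number differs between the lines was not tested.

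**Figure D2:**
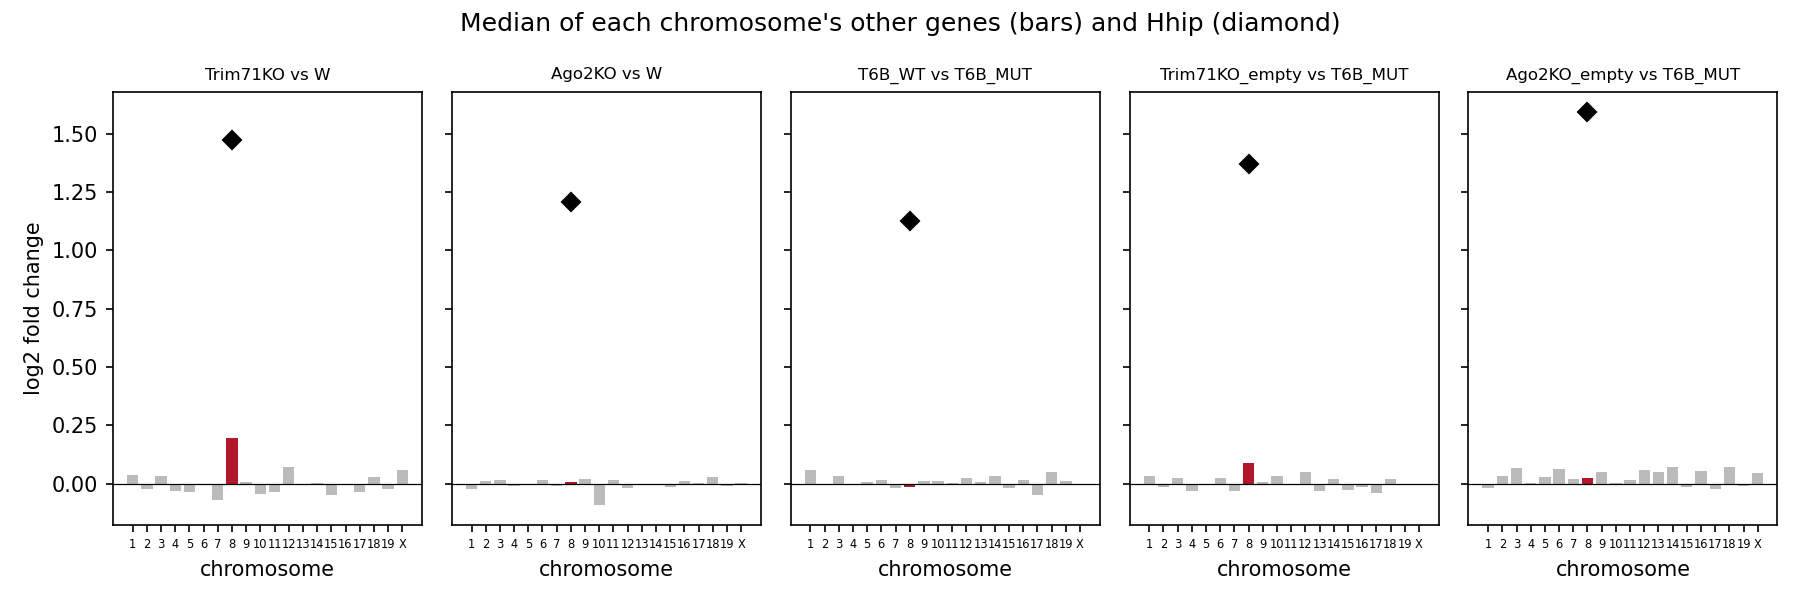
Median log2 fold change of the tested genes of each chromosome (bars, chromosome 8 in red, Hhip left out) and the log2 fold change of Hhip (black diamond) in the 5 comparisons with a control. The chromosome 8 bar reaches 0.19 in Trim71KO against W, and Hhip lies between 1.12 and 1.59 in all 5 panels.

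Among 14246 genes, the 5 whose log2 CPM over the 21 libraries, centred within each experiment, followed Hhip most closely were Atrn (Pearson r = 0.96), Lamp2 (0.95), Zc3hav1 (0.94), Ankib1 (0.94) and Ncam1 (0.94). The points share groups and libraries, and the correlations are a description. Ncam1, a neural cell adhesion molecule, came nearest in size, with log2 fold changes of 1.23 in Trim71KO, 1.21 in Ago2KO, 0.62 in T6B_WT, 0.97 in Trim71KO_empty and 1.15 in Ago2KO_empty. Atrn moved far less, by 0.35 to 0.58. No other Hedgehog member was among these genes. Boc came closest, at r = 0.74, Gli2 stood at 0.44 and Ptch1 at 0.32, and Gli1 had 0.03.

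Ptch1, the ligand receptor (chromosome 13, 63508328 to 63573598), did not follow Hhip in Experiment 1. It was counted at 60.6, 57.9 and 61.4 CPM in W, at 61.6, 65.5 and 62.9 CPM in Trim71KO and at 51.5, 48.0 and 46.3 CPM in Ago2KO. All Ago2KO libraries lay below all W libraries, and Ptch1 fell by 0.30 on the log2 scale (SE 0.05, edgeR adjusted p = 0.00119). The difference of 0.08 in Trim71KO was not called (edgeR adjusted p = 0.294). In Experiment 2 the level was 32.6, 35.8 and 33.6 CPM in T6B_MUT, 43.4, 39.8 and 42.9 CPM in T6B_WT and 52.9, 47.4 and 46.1 CPM in Trim71KO_empty. Both groups lay wholly above the control, yet neither difference passed the test over all 12 libraries (log2 fold changes 0.31 and 0.52, edgeR adjusted p = 0.315 and 0.0591). The Ago2KO_empty libraries ran from 28.7 to 54.2 CPM and set a wide SE of 0.18. Fitted without them, Ptch1 was higher in T6B_WT by 0.30 (SE 0.07, edgeR adjusted p = 0.00232) and in Trim71KO_empty by 0.52 (SE 0.07, edgeR adjusted p = 3.75e-06).

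Boc, the co-receptor (chromosome 16, 44485049 to 44558897), was higher in both edited lines in both experiments. It stood at 2.33, 2.51 and 2.43 CPM in W, at 2.84, 3.22 and 3.18 CPM in Trim71KO and at 4.78, 4.92 and 4.30 CPM in Ago2KO. The groups did not overlap, and the log2 fold changes were 0.35 (SE 0.12, edgeR adjusted p = 0.0344) in Trim71KO and 0.94 (SE 0.11, edgeR adjusted p = 4.5e-05) in Ago2KO. The Trim71KO call was lost in 7 of 11 alternative fits (largest adjusted p = 0.106), namely with DESeq2, with both groups fitted alone, and without W replicate 1, 2 or 3 or Trim71KO replicate 2 or 3. Against 5.18, 4.70 and 5.32 CPM in T6B_MUT, Boc had 10.2, 7.01 and 7.03 CPM in Trim71KO_empty and 9.22, 9.69 and 7.38 CPM in Ago2KO_empty. It was higher by 0.68 (SE 0.14, edgeR adjusted p = 0.00131) and 0.79 (SE 0.14, edgeR adjusted p = 0.000437). T6B_WT, at 5.97, 5.37 and 5.67 CPM, was not called (log2 fold change 0.16, SE 0.14, edgeR adjusted p = 0.518). Gas1, a co-receptor anchored by a lipid, was too low to resolve, with 10 to 54 reads and 0.298 to 1.22 CPM in all libraries, and was called in none of the 5 comparisons with a control.

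Smo, the transducer (chromosome 6, 29735503 to 29761365), moved little, between 31.2 and 41.1 CPM in all 21 libraries. It was lower by 0.21 in Trim71KO_empty (SE 0.07, edgeR adjusted p = 0.0306) and by 0.19 in Ago2KO_empty (SE 0.07, edgeR adjusted p = 0.0469). Leaving out T6B_MUT replicate 1 or 2 ended both calls (adjusted p = 0.078 and 0.121 in Trim71KO_empty, 0.086 and 0.13 in Ago2KO_empty). So did leaving out any 1 Trim71KO_empty library for the first (adjusted p = 0.0541 to 0.0808) and Ago2KO_empty replicate 1 or 2 for the second (adjusted p = 0.16 and 0.0537). Sufu, the GLI inhibitor (chromosome 19, 46396896 to 46488804), was called against no control. It stood at 13.2 to 14.8 CPM in W, 15.0 to 16.3 CPM in Trim71KO and 11.5 to 13.6 CPM in Ago2KO. The edited groups did not overlap, and Sufu was higher in Trim71KO than in Ago2KO by 0.32 (SE 0.08, edgeR adjusted p = 0.00658).

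Gli1, the activator whose transcript is the usual readout of the pathway (chromosome 10, 127329882 to 127341974), rose in both Trim71-edited groups and fell in Ago2KO and in the libraries labelled Ago2KO_empty. W had 42.1, 44.1 and 47.5 CPM, Trim71KO 52.4, 55.9 and 52.4 CPM and Ago2KO 35.7, 33.5 and 32.5 CPM. No group overlapped another, with a rise of 0.27 (SE 0.06, edgeR adjusted p = 0.00314) in Trim71KO and a fall to a log2 fold change of -0.39 (SE 0.06, edgeR adjusted p = 0.000372) in Ago2KO. T6B_MUT had 28.6, 32.6 and 27.0 CPM, Trim71KO_empty 55.2, 49.6 and 51.2 CPM and Ago2KO_empty 22.8, 22.4 and 18.0 CPM. Again no group overlapped another, and the log2 fold changes were 0.82 (SE 0.09, edgeR adjusted p = 2.4e-06) and -0.48 (SE 0.09, edgeR adjusted p = 0.00105). These 4 calls held in all alternative fits. T6B_WT, at 27.9, 25.3 and 24.2 CPM, overlapped its control and was not called (log2 fold change -0.19, SE 0.09, edgeR adjusted p = 0.194). The median log2 fold change of the 975 other genes of chromosome 10 was -0.09 in Ago2KO against W, the lowest of any chromosome there, and 0.00 in Ago2KO_empty against T6B_MUT. GENCODE lists Arhgap9 and Gm47200 on the strand opposite Gli1, so its reads are uncertain to that extent.

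Gli3, which acts mainly as a repressor in the absence of ligand (chromosome 13, 15463235 to 15730026), was higher in Ago2KO, where Gli1 was lower. It stood at 7.97, 7.23 and 7.82 CPM in W, at 6.38, 7.31 and 6.72 CPM in Trim71KO and at 9.96, 10.4 and 9.20 CPM in Ago2KO. Ago2KO lay wholly above W, and Gli3 was higher by 0.35 (SE 0.09, edgeR adjusted p = 0.0103), a call that was lost without W replicate 2 (adjusted p = 0.06). Trim71KO overlapped W and was not called (log2 fold change -0.18, edgeR adjusted p = 0.151). In Experiment 2 T6B_MUT had 7.54, 8.46 and 7.34 CPM, T6B_WT 10.5, 10.6 and 10.7 CPM and Trim71KO_empty 5.14, 5.29 and 5.39 CPM. These groups did not overlap, but with Ago2KO_empty at 9.88, 15.7 and 7.19 CPM in the fit the SE was 0.21 and 0.22, and neither was called (edgeR adjusted p = 0.19 and 0.0824). Without the Ago2KO_empty libraries Gli3 was higher in T6B_WT by 0.44 (SE 0.09, edgeR adjusted p = 0.00121) and lower in Trim71KO_empty by 0.56 (SE 0.10, edgeR adjusted p = 0.00011). Gli2, the main activator at the top of the response (chromosome 1, 118834132 to 119053619), was counted at 48.7 to 60.9 CPM in Experiment 1, where W and Ago2KO overlapped and neither edited line was called against W. It stood at 31.3 to 37.3 CPM in T6B_MUT and 41.4 to 50.6 CPM in Trim71KO_empty, a difference of 0.45 (SE 0.27, edgeR adjusted p = 0.262) that was called without the Ago2KO_empty libraries (log2 fold change 0.44, SE 0.08, edgeR adjusted p = 0.000191).

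**Figure D3:**
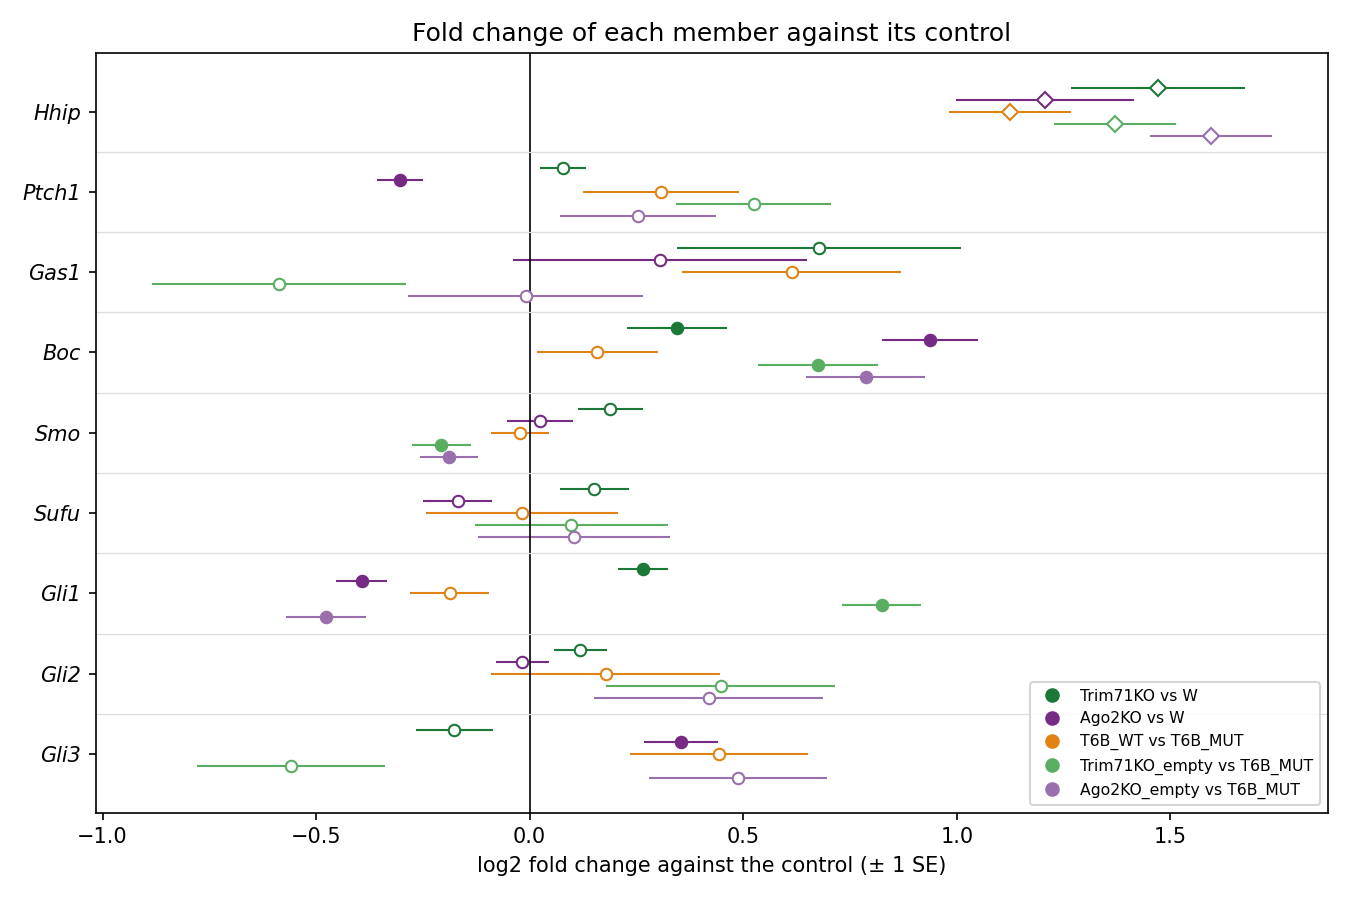
Log2 fold change of each member against its control in the 5 comparisons, with bars of 1 SE from the fit over all libraries of the experiment, filled where the adjusted p was under 0.05 and diamonds for Hhip, which was not tested. Hhip lies to the right in all 5, and Gli1 and Gli3 lie on opposite sides of 0, with Gli3 filled in Ago2KO alone. The bars of Ptch1, Sufu, Gli2 and Gli3 are wide in Experiment 2.

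Of the 8 members other than Hhip, 2 were called higher in Trim71KO against W (Gli1 and Boc), where 32.6% of all tested genes were called in either direction. In Ago2KO against W 2 were higher (Gli3 and Boc) and 2 lower (Ptch1 and Gli1), against 18% of all genes. In T6B_WT against T6B_MUT 0 of 8 were called by edgeR, against 16% of all genes, with 1 member (Gas1) at an unadjusted p under 0.05, and DESeq2 also called 0. Without the Ago2KO_empty libraries that count was 2 (Ptch1 and Gli3 higher), against 21.8%. In Trim71KO_empty against T6B_MUT 2 were higher (Gli1 and Boc) and 1 lower (Smo), against 27.8%, and 6 were called without the Ago2KO_empty libraries, against 34.6%. In Ago2KO_empty against T6B_MUT 1 was higher (Boc) and 2 lower (Gli1 and Smo), against 28.8%. The contrasts with a control are those for which the list was drawn up, and nothing about the list is read from these counts.

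The edited lines were also set against each other. The controls do not enter these fold changes, but their libraries share the fit and its estimate of the spread. In Trim71KO against Ago2KO 3 members were higher (Gli1 by 0.66, Ptch1 by 0.38 and Sufu by 0.32) and 2 lower (Gli3 by 0.53 and Boc by 0.59), against 34.2% of all tested genes. In Trim71KO_empty against Ago2KO_empty Gli1 was higher by 1.30 (SE 0.09, edgeR adjusted p = 6.69e-09) and Gli3 was lower by 1.05 (SE 0.22, edgeR adjusted p = 0.00362), against 31.6%. Both contrasts thus had the same direction for Gli1 and for Gli3. In each experiment every Trim71-edited library lay below every library labelled as an Ago2 knockout for Gli3, and above for Gli1. In Experiment 2 the Ago2 counts of the latter were uneven. Replicate 3, at 45.6 CPM, was near Ago2KO (39.8 to 43.6 CPM), and replicate 1, at 87.4 CPM, was below all T6B_MUT libraries. Replicate 2, at 166.6 CPM, was above all T6B_MUT libraries and also had the highest Gli3 value. A count over the whole gene does not measure the edit. Boc, which differed in Experiment 1, did not pass the test in Experiment 2 (log2 fold change -0.11, SE 0.14, edgeR adjusted p = 0.578).

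Differences between fold changes were tested over all 21 libraries. The Trim71 effect differed between the experiments for 2 members, against 10.1% of all genes. Gli1 rose less in Trim71KO than in Trim71KO_empty, by -0.56 on the log2 scale (SE 0.11, edgeR adjusted p = 0.00179), and Smo differed by 0.39 (SE 0.11, edgeR adjusted p = 0.0156). Without the Ago2KO_empty libraries 5 members differed, against 13.1%. The Ago2 effect differed between the experiments for 0 of 8 members by edgeR, against 2.13%, with Ptch1 and Smo at an unadjusted p under 0.05, and DESeq2 called 0 as well. The T6B effect was compared with both knockout effects of Experiment 1. It was smaller than the Ago2KO effect for Boc, by -0.78 (SE 0.19, edgeR adjusted p = 0.0174), the 1 member called against 3.16%. Without the Ago2KO_empty libraries Ptch1 was called too, higher by 0.61 (SE 0.08, edgeR adjusted p = 3.45e-05), against 4.03%, since Ptch1 was lower in Ago2KO and higher in T6B_WT than in their controls. Against the Trim71KO effect it was lower for Gli1 by -0.45 (SE 0.11, edgeR adjusted p = 0.00463), the 1 member called against 23.2%, and 3 were called without the Ago2KO_empty libraries, against 26.5%.

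A wider list of 116 Hedgehog pathway genes, grouped by role, held 105 genes that were in the table. In Trim71KO against W 28 were higher and 15 lower of 100 tested, against 32.6% of all genes called, with a median log2 fold change of 0.07 (all genes 0.00). In Ago2KO 15 were higher and 2 lower of 100, near the 18% of all genes called, with a median of 0.05 (all genes 0.00). In T6B_WT 16 were higher and 8 lower of 104, against 16% of all genes, with a median of 0.05 (all genes 0.01). Trim71KO_empty had 22 higher and 16 lower and Ago2KO_empty 22 higher and 9 lower of 104, against 27.8% and 28.8% of all genes, with medians of 0.05 (all genes 0.00) and 0.11 (all genes 0.03). These genes were listed with earlier results known, so the counts describe the pathway and test nothing about it.

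The ligands were near the lower limit of counting. Shh was not among the genes of the deposited count table and could not be analysed. Ihh averaged 0.110 to 0.286 CPM and Dhh 0.271 to 0.732 CPM over the groups, and neither was called in any of the 5 comparisons. Of 12 genes that process or release ligands, 5 were higher and 0 lower in Ago2KO, in T6B_WT and in Ago2KO_empty, against 18%, 16% and 28.8% of all genes called in either direction. In Trim71KO 5 were higher and 1 lower, and in Trim71KO_empty 3 were higher and 2 lower, against 32.6% and 27.8%. Scube3, which helps to release ligand from the membrane, was higher in these 3 comparisons by 0.64 (SE 0.12), 0.72 (SE 0.13) and 0.94 (SE 0.13), with edgeR adjusted p of 0.00141, 0.00115 and 7.76e-05. It was lower in Trim71KO (log2 fold change -0.85, SE 0.13, edgeR adjusted p = 0.000112) and higher in Trim71KO_empty (0.36, SE 0.13, edgeR adjusted p = 0.0494). The latter call was lost without any 1 T6B_MUT library (edgeR adjusted p = 0.0802 to 0.128), and without Trim71KO_empty replicate 1 the value was 0.13 (edgeR adjusted p = 0.389). Hhat, the acyltransferase that attaches palmitate to the ligands, rose by 1.13 in Trim71KO (SE 0.13, edgeR adjusted p = 1.33e-05) and by 0.73 in Trim71KO_empty. Gpc3, a glypican that binds Hedgehog ligands, was lower by 0.95 in Trim71KO_empty (SE 0.08, edgeR adjusted p = 7.39e-08). In Trim71KO it lay the other way, at 21.9 to 23.1 CPM against 19.4 to 19.8 CPM in W.

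Among the co-receptors, Cdon, a relative of Boc, was called in Ago2KO_empty alone (0.27, SE 0.10, edgeR adjusted p = 0.0432). That call was lost without any 1 library of either group other than Ago2KO_empty replicate 3, with a value of 0.15 without Ago2KO_empty replicate 2 (edgeR adjusted p = 0.28), and in Ago2KO its difference of 0.28 had an edgeR adjusted p of 0.0577. Gpr161, a ciliary receptor listed with the co-receptors that keeps the pathway off through protein kinase A, rose by 0.75 in Trim71KO (SE 0.11, edgeR adjusted p = 8.16e-05). In Ago2KO it was higher by 0.41 (edgeR adjusted p = 0.0165), a call lost without Ago2KO replicate 3 or W replicate 1 (edgeR adjusted p = 0.063 and 0.0689). In Ago2KO_empty it stood at 6.65 CPM against 7.49 CPM in T6B_MUT and was not called (-0.17, SE 0.09, edgeR adjusted p = 0.172). Lrp2, the large endocytic receptor megalin, averaged 62.6 CPM in W and 16.3 CPM in Trim71KO (log2 fold change -1.94, SE 0.13, edgeR adjusted p = 1.75e-06). It was lower in Trim71KO_empty (-0.99, SE 0.16, edgeR adjusted p = 0.000815). In Ago2KO it averaged 59.8 CPM and was not called (-0.07, SE 0.12, edgeR adjusted p = 0.755), nor in T6B_WT (-0.06, SE 0.15, edgeR adjusted p = 0.85). In Ago2KO_empty it was higher by 0.59 (SE 0.15, edgeR adjusted p = 0.0151), a call lost without Ago2KO_empty replicate 2 or T6B_MUT replicate 1 or 3 (edgeR adjusted p = 0.052 to 0.0567). Primitive endoderm, which can arise in such cultures, also expresses Lrp2. The summed level of 8 primitive endoderm markers was 51.5 to 52.6 CPM in W, 6.95 to 7.30 CPM in Trim71KO and 12.5 to 14.5 CPM in Ago2KO, with 7 and 8 of the 8 called lower. It was 31.3 to 31.8 CPM in T6B_MUT, 25.3 to 28.5 CPM in T6B_WT, 10.7 to 12.5 CPM in Trim71KO_empty and 18.7 to 27.9 CPM in Ago2KO_empty. None of these markers stood at 0. In bulk RNA fewer cells of a type and less RNA per cell cannot be told apart, and the part of such cells in the values of Lrp2 or of any member was not tested. The summed level of 5 markers of 2-cell-like cells was 10.7 to 11.96 CPM in W, 0.577 to 0.999 CPM in Trim71KO and 2.11 to 2.74 CPM in Ago2KO, where Usp17la stood at 0 in replicate 2. It was 14.8 to 16.0 CPM in T6B_MUT, 71.4 to 73.3 CPM in T6B_WT, 15.3 to 16.4 CPM in Trim71KO_empty and 52.3 to 62.3 CPM in Ago2KO_empty, with all 5 called higher in T6B_WT and in Ago2KO_empty. The part of such cells was not tested either.

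In the signal transduction group of 14 genes, Evc, a ciliary partner of SMO, was lower in T6B_WT (-0.38, SE 0.07, edgeR adjusted p = 0.00106), Trim71KO_empty (-0.48, SE 0.07, edgeR adjusted p = 5.24e-05) and Ago2KO_empty (-0.51, SE 0.07, edgeR adjusted p = 4.12e-05). These differences share the T6B_MUT libraries. In Experiment 1 Evc averaged 37.7 CPM in W, 39.3 CPM in Trim71KO and 32.5 CPM in Ago2KO, and both edited groups overlapped W. Mosmo, a negative regulator of SMO, was higher in both Trim71-edited groups, by 0.49 and 0.48. Of 22 listed genes of GLI regulation, 2 were called in Ago2KO and in T6B_WT, the GLI relatives Glis3 and Zic2. The shares of all genes called in those comparisons were 18% and 16%. Their log2 fold changes, Glis3 first, were 0.94 and 0.86 in Ago2KO and 1.20 and 1.16 in T6B_WT. Glis3 and Zic2 were also called in Ago2KO_empty (1.26 and 1.12), whereas Zic2 was lower in Trim71KO_empty (-1.02, SE 0.15, edgeR adjusted p = 6.18e-05). Trim71KO had 7 higher and 3 lower of the 20 tested in this group, against 32.6% of all genes, led by Prkaca, a catalytic subunit of protein kinase A, at 0.47 (SE 0.06, edgeR adjusted p = 3.86e-05). Of 31 cilium genes, Kif3b, a motor of anterograde transport, rose by 0.56 in Trim71KO and 0.61 in Trim71KO_empty, and Ift80 by 0.38 and 0.43. In T6B_WT 0 were higher and 4 lower, a share below the 16% of all genes called, among them B9d1 at -0.63 (SE 0.10, edgeR adjusted p = 0.000201). Trim71KO_empty had 9 higher and 0 lower, against 27.8%.

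**Figure D4:**
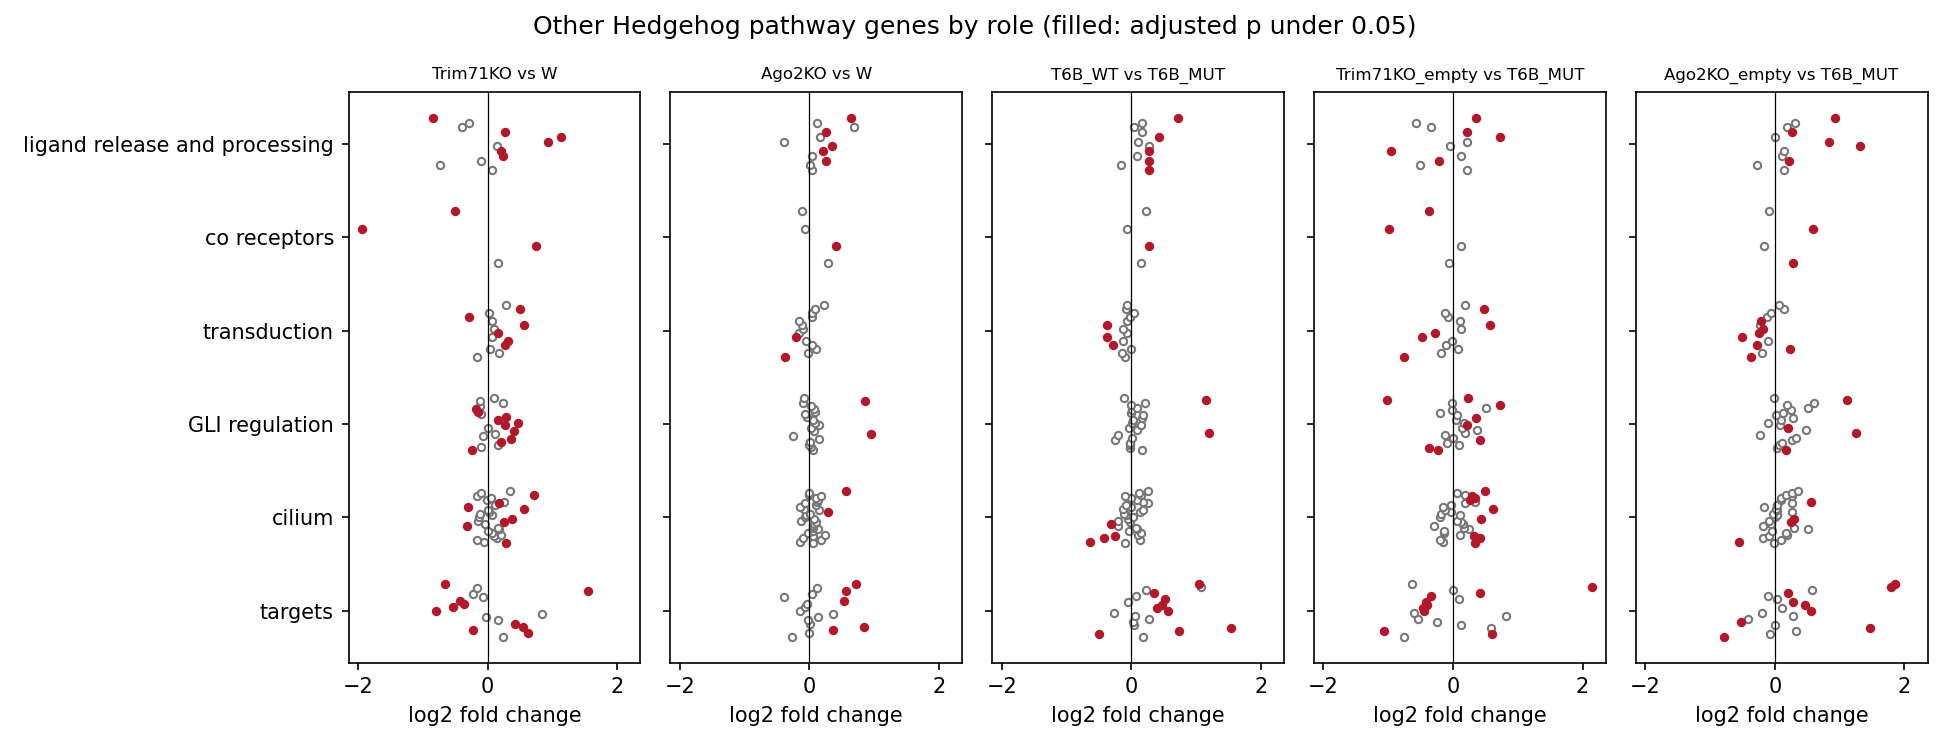
Log2 fold change of the wider list's genes by role in the 5 comparisons, 1 point per gene, filled where the edgeR adjusted p was under 0.05. Filled points lie on both sides of 0 in most roles, and the ligand release genes called in Ago2KO, T6B_WT and Ago2KO_empty all lie to the right.

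The last group held 20 genes known as Hedgehog targets in some tissues, most of which other pathways also control. Ccnd1, which encodes cyclin D1, was higher in Ago2KO by 0.36 (SE 0.05, edgeR adjusted p = 9.79e-05) and in T6B_WT by 0.74 (SE 0.15, edgeR adjusted p = 0.00718), and lower in Trim71KO (-0.23, SE 0.05, edgeR adjusted p = 0.00194) and Trim71KO_empty (-1.07, SE 0.15, edgeR adjusted p = 0.000463). Ccnd2 rose in Trim71KO (0.54), Ago2KO (0.85), T6B_WT (1.54) and Ago2KO_empty (1.47). Its T6B_WT call was lost without T6B_MUT replicate 1 or 3 (edgeR adjusted p = 0.0514 and 0.0536), and the Ago2KO_empty value was 0.94 without Ago2KO_empty replicate 2. Wnt5a, a secreted signal, was higher in Ago2KO_empty by 1.85 (SE 0.24, edgeR adjusted p = 2.09e-05). Its other calls, in Trim71KO (-0.66), Ago2KO (0.72) and T6B_WT (1.04), were each lost without at least 1 library: W replicate 1 or 2 or Trim71KO replicate 2 or 3 for the first, W replicate 3 or Ago2KO replicate 1 for the second and T6B_WT replicate 2 for the third (edgeR adjusted p = 0.0624 to 0.144). Sfrp1, a WNT inhibitor, was higher in Trim71KO (1.55), Ago2KO (0.57), T6B_WT (0.35) and Trim71KO_empty (0.42). In Ago2KO_empty its value of 0.21 (edgeR adjusted p = 0.0427) was no longer called without any 1 library of either group other than Ago2KO_empty replicate 3, and it was 0.10 without Ago2KO_empty replicate 2. Bmp4 was higher in both Trim71-edited groups (0.62 and 0.59) and lower in T6B_WT (-0.50, SE 0.08, edgeR adjusted p = 0.000154). Of the 17 to 19 targets tested, 4 were higher and 6 lower in Trim71KO, 5 and 0 in Ago2KO, 8 and 1 in T6B_WT, 3 and 6 in Trim71KO_empty and 7 and 2 in Ago2KO_empty. The shares of all genes called in these comparisons were 32.6%, 18%, 16%, 27.8% and 28.8%.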

How the data were processed

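The authors deposited 1 table with raw read counts and RPKM values for the 21 libraries and a gene length in bases, per the file headers. The tools bcl2fastq 2.17 and STAR 2.7.3a and the builds GRCm38 and mm10 were named, without their roles, per the submitters' processing notes. The counting program, annotation, gene filter and use of strand are not given in the sources used here. Raw counts as deposited entered all tests, and the deposited RPKM values only the levels compared between genes. The tests were edgeR 4.0.16 quasi-likelihood fits (TMM, filterByExpr with a minimum count of 10, R 4.3.3) over the 9 libraries of Experiment 1, the 12 of Experiment 2 or all 21 for differences, checked on simulated data, with Benjamini-Hochberg adjusted p under 0.05 over all genes tested (21210, 21505 and 22258). The simulation gave all genes the same dispersion and changed only well-counted genes. It therefore does not cover genes with few reads or a trend with gene length. Each SE was derived from the fit as the absolute log2 fold change divided by the square root of its F statistic. Named genes are the 9 members, Trim71 and Ago2, the ligands and Cdon, up to 4 called genes with the largest change per role and comparison, and the 5 genes most like Hhip (Pearson correlation of log2 CPM, prior count 2, mean log2 CPM at least 1). The text gives examples of these, with their values in other comparisons. Coordinates and UTRs are from GENCODE M21 (GRCm38), and the longest annotated UTR of each gene was searched. DESeq2, other scaling, no filter, a replicate block and left-out libraries were the alternatives, and the fit without the Ago2KO_empty libraries was added after their values were seen, as was leaving out each library for called genes of the wider list. The members and lists were chosen with earlier results of these data known. A gene that the rule also names is not reported here.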

Additional observations from a re-analysis of the deposited data

Results flagged for a closer look

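These results differed between the experiments by the test of the difference itself, over all 21 libraries. The log2 fold change of Gli1 in Trim71KO against W minus that in Trim71KO_empty against T6B_MUT was -0.56 (SE 0.11, edgeR adjusted p = 0.00179), and that of Smo was 0.39 (SE 0.11, edgeR adjusted p = 0.0156). Lrp2 differed by -0.96 (SE 0.22, edgeR adjusted p = 0.00902), since it fell further in Trim71KO. Gpr161 differed by 0.63 (SE 0.13, edgeR adjusted p = 0.00258) for the Trim71 edit, and by 0.59 (SE 0.14, edgeR adjusted p = 0.0166) for the Ago2 edit. In each case the controls differ in plasmid as well as experiment, and these cannot be told apart.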

How the results depend on the processing

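Hhip stayed higher in all alternatives of the 5 comparisons with a control, and its value moved beyond the replicate spread once, to 1.04 in T6B_WT against T6B_MUT after the trend with gene length was subtracted (added after seeing the data). The number of other members called moved more. In Trim71KO against W it was 1 with DESeq2 or both groups fitted alone, and 1 to 2 with a library left out. In T6B_WT it was 2 with the groups fitted alone or without the Ago2KO_empty libraries. In Trim71KO_empty it was 5 with DESeq2, 6 with the groups fitted alone and 6 without the Ago2KO_empty libraries. With a library left out, it was 2 to 6 in Ago2KO_empty against T6B_MUT (6 without Ago2KO_empty replicate 3) and 2 to 4 in Trim71KO_empty against Ago2KO_empty (4 without Ago2KO_empty replicate 2). For the difference between the Trim71 effects it was 1 to 3 with a library left out (1 without W replicate 1 or T6B_MUT replicate 2) and 5 without the Ago2KO_empty libraries. For that between the Ago2 effects it was 0 to 1 (1 without Ago2KO_empty replicate 3). For T6B_WT minus Ago2KO it was 2 with DESeq2, 2 without the Ago2KO_empty libraries and 0 to 1 with a library left out. For T6B_WT minus Trim71KO it was 2 with DESeq2 or RLE size factors and 3 without the Ago2KO_empty libraries. The wider list had 31 calls in Ago2KO_empty, 19 with the groups fitted alone and 14 to 39 with a library left out.

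Correlations of same-numbered deviations ran from -0.56 to 0.56 in Experiment 1 and from -0.35 to 0.33 in Experiment 2. Differently numbered libraries were not compared, so these values do not settle whether replicate numbers pair the libraries. With the replicate number as a block, T6B_WT minus Trim71KO had 2 members called instead of 1, and Smo in Ago2KO_empty was no longer called (adjusted p = 0.0633).

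Signs turned with a library left out only for members not called. The values with each library left out ran from -0.081 to 0.042 for Gli2, -0.048 to 0.084 for Smo and -0.062 to 0.66 for Gas1 in Ago2KO. They ran from -0.060 to 0.0074 for Smo and -0.12 to 0.029 for Sufu in T6B_WT, and from -0.017 to 0.19 for Sufu in Trim71KO_empty. In Ago2KO_empty they ran from -0.032 to 0.42 for Ptch1, -0.0071 to 0.63 for Gli2, -0.26 to 0.29 for Sufu and -0.21 to 0.14 for Gas1, and the lowest values of Ptch1, Gli2 and Sufu were those without Ago2KO_empty replicate 2. The cause of these changes was not tested. Gas1 had 10 to 54 reads in all libraries and Hhip 41 to 129 in Experiment 1.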
